A study of Mus musculus with 24 samples.

Results

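The 7 genes described here code for the MHC class II antigen presentation machinery of the mouse: H2-Aa, H2-Ab1, H2-Eb1, H2-DMa, H2-DMb1, Cd74 and Ciita. They were taken by gene symbol from the 55401 genes of the raw count tables, and the rule uses no measured value, though the set was proposed with earlier results of these data known. All 7 had reads in all 24 tumors. The tumors were grown in male C57/BL6 mice of 8 to 10 weeks from TC2Ras cells, a TRAMP-C2 prostate cancer line that carries activated H-Ras and the mouse androgen receptor. Subcutaneous tumors were grown from 300000 TC2Ras cells and taken 1 week after implantation, from a control group given empty vector (n = 2) and from a group given a plasmid coding for IL-27 (n = 2). Intratibial tumors were grown from 100000 luciferase-expressing TC2Ras-Luc cells and taken at day 14 (n = 3 per arm) or at the ethical endpoint, called EOS (n = 2 per arm). Their 4 arms were control (empty vector and the PVP vehicle), IL-27 (IL-27 plasmid and vehicle), cabo (empty vector and cabozantinib, an oral inhibitor of receptor tyrosine kinases such as MET) and IL-27+cabo (both agents). In all 10 groups plasmid was delivered to muscle by sonoporation, so the controls also had an injected and insonated muscle, and in the intratibial arms cabo or vehicle was given by daily gavage for 2 weeks after implantation. All tumors descend from 1 cell line. Intratibial tumors are named by the mouse number in their library names, and whether the 2 subcutaneous tumors of a group came from separate mice is not given in the sources used here, so the p-values of that comparison measure the spread between these tumors only.

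MHC class II molecules are pairs of an alpha and a beta chain that hold peptides from endosomes at the cell surface for CD4+ T cells. In the mouse the I-A molecule is built from H2-Aa and H2-Ab1, and H2-Eb1 codes for the beta chain of the I-E molecule. The invariant chain Cd74 fills the groove of new class II molecules and steers them to endosomes, where the H2-M molecule, built from H2-DMa and H2-DMb1, removes its remnant and edits the peptides loaded. Ciita is the co-activator that switches the other genes on. It binds no DNA itself and docks on factors at the X1, X2 and Y boxes of their promoters. Dendritic cells, macrophages and B cells carry class II constitutively, and interferon gamma can induce Ciita and class II in many other cells, tumor cells among them.

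The promoters of 4 of the 7 genes are in the RefSeq promoter table used here (build GRCm38.p6), and those of H2-Aa, H2-Eb1 and H2-DMb1 are printed because the class II boxes can be read in them. Each run is the 100 bases from 120 to 21 bases before the start annotated in that table, 5′ to 3′ on the coding strand. By GENCODE M21, used below for gene positions, H2-DMb1 begins at 34153072, so nearly all of its run lies within that gene. Its distances hold for the RefSeq start only. Capitals mark AACNGATG, the part of the X1 box searched, TGACGTCA, a cyclic-AMP response element of the kind found as an X2 box, and ATTGG, the core of the Y box, where they read on the printed strand. The motifs were chosen after the sequences were seen and were searched on both strands.
H2-Eb1, chr17:34305747-34305846 (+): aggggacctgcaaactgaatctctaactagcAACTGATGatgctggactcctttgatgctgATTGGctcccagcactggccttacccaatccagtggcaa
H2-DMb1, chr17:34153071-34153170 (+): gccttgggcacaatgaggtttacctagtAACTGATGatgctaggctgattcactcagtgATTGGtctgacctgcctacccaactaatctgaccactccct
H2-Aa, chr17:34287844-34287943 (-): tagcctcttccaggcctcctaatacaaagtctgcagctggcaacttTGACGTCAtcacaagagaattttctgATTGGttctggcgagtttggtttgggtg

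In H2-Eb1 the X1 motif began 89 bases and the Y motif 59 bases before the start, 30 bases apart. A second Y motif, on the other strand and left in lower case, began 35 bases before it. In H2-DMb1 they began 92 and 61 bases before it, 31 bases apart. In H2-Aa the searched X1 letters were not in the window, and TGACGTCA began 74 and ATTGG 48 bases before the start, 26 bases apart. Of all 32851 promoters of 300 bases in the table, 2.32% held AACNGATG, 1.79% TGACGTCA and 37.4% ATTGG. An X1 motif followed by a Y motif within 40 bases on the same strand was found in 8 promoters, which is 0.0244%. Of the 2 starts listed for H2-DMa, which both lie within the GENCODE span of the gene, 1 had an ATTGG, 198 bases before the start. H2-Ab1, Cd74 and Ciita had no entry. A match is a description of the letters and not a shown binding site.

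Sequencing depth was 63729005 to 75305934 counted reads per intratibial tumor and 69240429 to 83782258 per subcutaneous tumor, and the 2 sites were normalized apart. The lowest raw count of any member in a tumor was 22 (Ciita). The epithelial tumor markers Krt8, Krt18, Epcam and Cdh1 were detected in every group, with a summed level of 4.10 to 270 CPM (reads of a gene scaled to a common library size by TMM). The summed level of 12 skeletal muscle markers ran from 5.54 to 6192 CPM, and their values are given beside the comparisons. B cell markers were low, with a summed level of at most 10.6 CPM in any tumor. Because these are whole tumors, fewer class II-bearing cells and less class II RNA per cell cannot be told apart in any value below.

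By GENCODE M21 (build GRCm38) 5 of the genes lie in the MHC on chromosome 17. H2-DMa (ENSMUSG00000037649) spans 34119541 to 34139101 (+) and H2-DMb1 (ENSMUSG00000079547) 34153072 to 34160230 (+). H2-Ab1 (ENSMUSG00000073421) spans 34257689 to 34269419 (+), H2-Aa (ENSMUSG00000036594) 34282744 to 34287823 (-) and H2-Eb1 (ENSMUSG00000060586) 34305867 to 34316674 (+). Ciita (ENSMUSG00000022504) lies on chromosome 16 at 10480059 to 10528418 (+) and Cd74 (ENSMUSG00000024610) on chromosome 18 at 60803848 to 60812652 (+). All are protein-coding, and how reads were summed per gene is not given in the sources used here. H2-DMa overlaps 4 annotated genes, the antisense gene Brd2 and 2 further antisense gene models and a gene model on its own strand. Ciita overlaps the antisense gene Dexi, H2-Eb1 an antisense gene model and Cd74 the microRNA gene Mir5107 on its own strand. The strand setting of the counting is not given in the sources used here, so reads of antisense pairs cannot be told apart, and strand cannot part genes on the same strand. H2-DMb1 shared 22.7% of its 50-base stretches with its neighbour H2-DMb2, and the split of reads between them is uncertain.

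Levels are given as CPM, and compared between genes only per kilobase of the longest annotated transcript, which assumes that reads were counted over exons. Across the 20 intratibial tumors the median level per kilobase was highest for Cd74 (39.5 CPM per kb), followed by H2-Ab1 (15.9), H2-Eb1 (11) and H2-Aa (6.18). The chains of H2-M were lower, at 4.10 CPM per kb for H2-DMb1 and 3.44 for H2-DMa, and Ciita was lowest at 0.264. The alpha chain of I-E is not expressed in C57BL/6 mice, and the annotated H2-Ea-ps was listed at 0 counts in all 24 tumors while H2-Eb1 was read throughout.

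**Figure D1:**
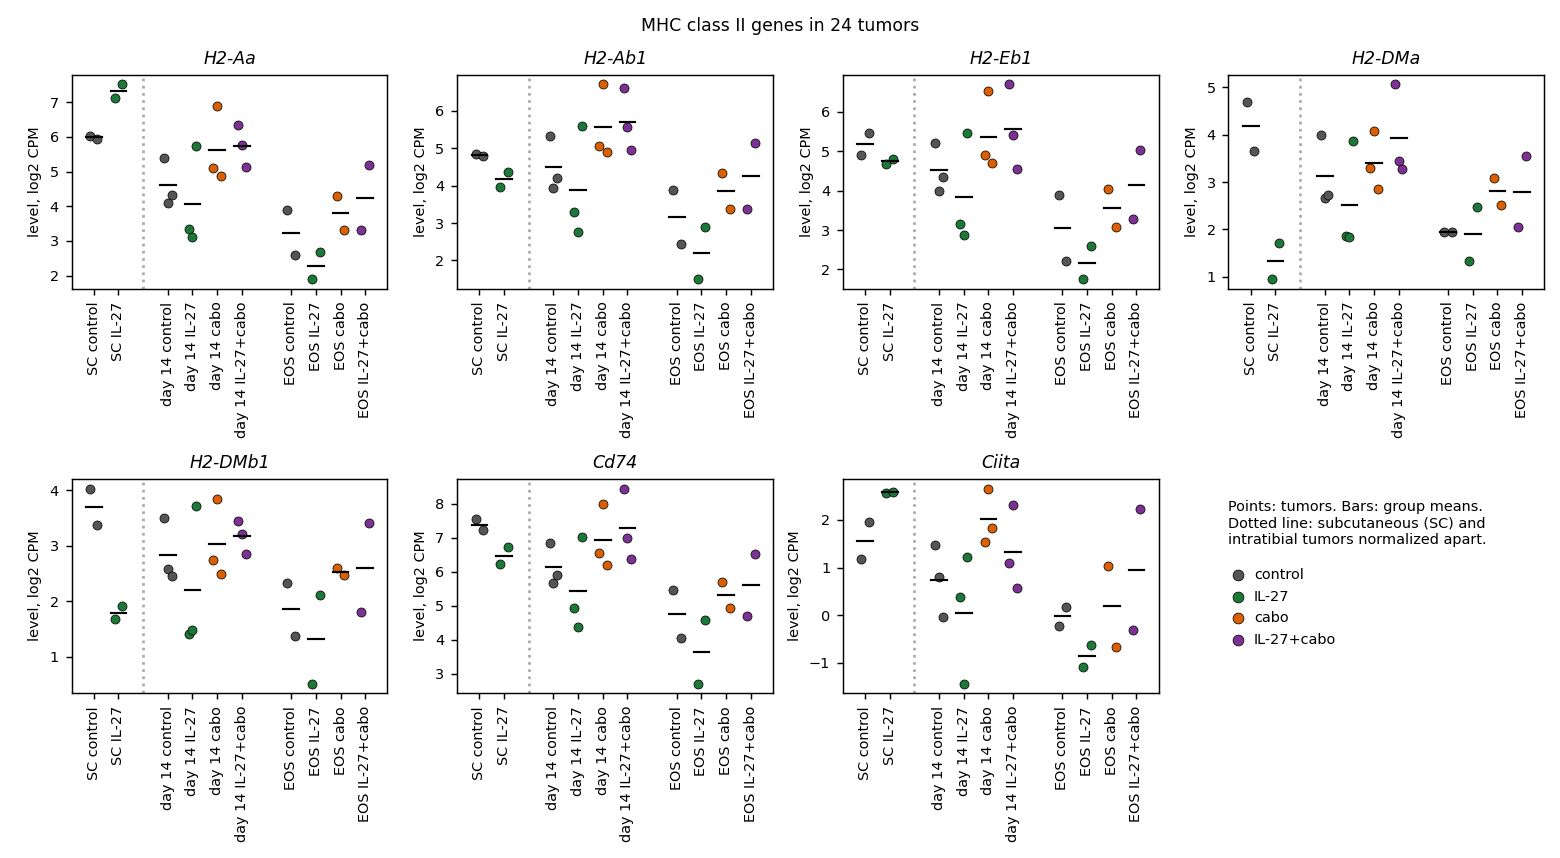
TMM-scaled level (log2 CPM, vertical axis) of the 7 MHC class II genes in 24 tumors by group, with points for tumors and bars for group means. Subcutaneous (SC) and intratibial tumors, split by the dotted line, were normalized apart. In the intratibial tumors the EOS IL-27 group has the lowest mean of all 7 genes.

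The class II genes varied widely between intratibial tumors. Cd74 ran from 6.56 to 347 CPM, a 52.9-fold range over 20 tumors, and the surface chains H2-Ab1, H2-Aa and H2-Eb1 had ranges of 37.6-, 32- and 30.9-fold. Ciita, H2-DMa and H2-DMb1 ranged less, 18.5-, 13.4- and 10.2-fold. The extremes were the same animals for most genes. Mouse 10 (EOS, IL-27) had the lowest level of 6 of the 7 genes and was among the lowest 3 tumors for all 7, and mouse 25 (day 14, cabo) was among the highest 3 for all 7. Mouse 20 (day 14, IL-27+cabo) was among the highest 3 for 5 genes.

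The day 14 IL-27+cabo group had the highest mean log2 CPM of 6 genes and the day 14 cabo group that of Ciita, and the EOS IL-27 group had the lowest mean of all 7. For 6 genes the ranges of the tumors overlapped in all 7 pairs of neighbouring groups when ordered by mean, and for Ciita in 6 of 7 pairs. Mean H2-Aa levels on the log2 scale ran from 5.74 ± 0.61 (SD, n = 3) in day 14 IL-27+cabo tumors to 2.29 ± 0.55 (SD, n = 2) in EOS IL-27 tumors. Neighbours such as day 14 IL-27+cabo and day 14 cabo (5.62 ± 1.10, SD, n = 3) differed by less than their spread.

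In the subcutaneous tumors, the comparison of IL-27 with control asked what the cytokine plasmid alone did to the class II genes. The members did not move together. H2-Aa, the I-A alpha chain, was higher with IL-27, and both chains of H2-M were lower. Of the 7 genes, 3 passed the test (edgeR adjusted p under 0.05), 1 higher and 2 lower, where 20% of all 19360 genes tested passed, 3.52% higher and 16.5% lower. DESeq2 also called 3 of the 7, where it called 31.6% of all genes. The median log2 fold change of the 7 was -0.64 and that of all genes tested 0.04.

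H2-Aa stood at 65.6 and 61.2 CPM in control tumors and at 139 and 183 CPM in IL-27 tumors, without overlap. Its log2 fold change was 1.34 ± 0.33 (SE), a 2.53-fold rise (edgeR adjusted p = 0.0292). Leaving out any 1 of the 4 tumors gave a log2 fold change of 1.12 to 1.52 and an adjusted p between 0.0515 and 0.273 (edgeR), so the size held and the call did not. In such fits the lone tumor of a group is assumed to vary like the other group. H2-DMa stood at 26.0 and 12.7 CPM in control and at 1.9 and 3.26 CPM in IL-27 tumors. It fell by 2.91 ± 0.54 (SE) on the log2 scale (edgeR adjusted p = 0.0109). Its partner H2-DMb1 stood at 16.3 and 10.3 CPM in control and at 3.17 and 3.73 CPM in IL-27 tumors. It fell by 1.95 ± 0.45 (SE) on the log2 scale (edgeR adjusted p = 0.0239), so both chains of the peptide editor were lower in both IL-27 tumors. Without the first control tumor, the higher of the pair for both genes, neither call held, at log2 fold changes of -2.28 for H2-DMa and -1.57 for H2-DMb1 (edgeR adjusted p = 0.0739 and 0.109). Without the first IL-27 tumor H2-DMb1 was at -1.84 and was not called either (edgeR adjusted p = 0.0877).

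The other 4 genes did not pass the test. Cd74 was at 186 and 149 CPM in control and at 74.1 and 105 CPM in IL-27 tumors (log2 fold change -0.90 ± 0.34, SE, edgeR adjusted p = 0.111). H2-Ab1, the partner of H2-Aa, was at 28.6 and 27.9 CPM in control and at 15.7 and 20.6 CPM in IL-27 tumors (-0.64 ± 0.35, SE, edgeR adjusted p = 0.23). The alpha and beta chain of I-A thus had estimates of opposite sign in this fit, and both were above 0 with offsets for GC content and length (0.65 for H2-Aa and 1.39 for H2-Ab1). H2-Eb1 was at 29.9 and 43.9 CPM in control and at 25.7 and 28 CPM in IL-27 tumors (-0.46 ± 0.35, SE, edgeR adjusted p = 0.382). Ciita, the co-activator that all of them share, was at 2.23 and 3.86 CPM in control and at 5.92 and 5.99 CPM in IL-27 tumors (0.97 ± 0.50, SE, edgeR adjusted p = 0.211).

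The balance of the paired chains was also read within each tumor. The ratio of H2-Aa to H2-Ab1, each per kilobase, was 0.861 and 0.824 in the control and 3.33 and 3.34 in the IL-27 subcutaneous tumors. In the 20 intratibial tumors it lay between 0.315 and 0.498 (median 0.391), whatever the treatment or time, below all 4 subcutaneous tumors. The ratio of H2-DMa to H2-DMb1 was 1.12 and 0.861 in control and 0.420 and 0.611 in IL-27 subcutaneous tumors, and lay between 0.533 and 2.16 in intratibial tumors. The value of 2.16 belonged to mouse 20, and the next highest was 1.24. A ratio within a tumor does not depend on its library size, but no correction for GC content was made in it, and the GC content of the chains of I-A differs (46.5% for H2-Aa and 57.3% for H2-Ab1). With GC and length offsets the order of the I-A chains in IL-27 over control was turned, as the estimates above show. No test was run on these ratios.

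**Figure D2:**
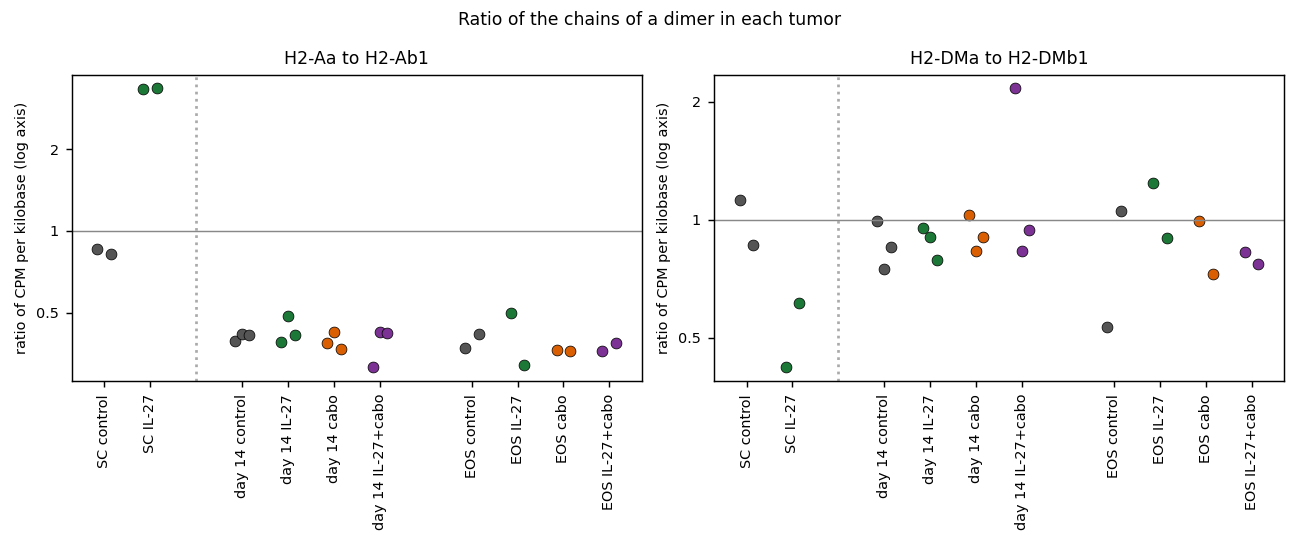
Ratio of the chains of I-A (left) and of H2-M (right), each per kilobase (vertical axis, log scale), in 24 tumors by group, with points for tumors and no correction for GC content. The H2-Aa to H2-Ab1 ratio of the 2 subcutaneous IL-27 tumors (3.33 and 3.34) lies above that of the other 22 tumors (0.315 to 0.861).

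Base composition moved with this comparison. With all genes tested in the subcutaneous tumors ranked by the GC content of their longest annotated transcript and cut into 4 bins of like size, the median log2 fold change of IL-27 over control ran from 0.85 in the bin of lowest GC content to 0.38, -0.33 and -2.05 in the next ones. H2-Aa (46.5% GC) lay in the second bin, H2-Eb1 (51.8%) and H2-DMb1 (53.8%) in the third, and H2-DMa (55.1%), Ciita (55.2%), Cd74 (56.6%) and H2-Ab1 (57.3%) in the fourth. Of the genes of the fourth bin, H2-Ab1, Cd74 and Ciita had estimates above its median and H2-DMa one below it.

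With offsets for GC content and length in the fit, 2 of the 7 genes were called and both were higher, where 11.4% of all genes were called. Ciita had a log2 fold change of 2.25 ± 0.47 (SE, edgeR adjusted p = 0.0306) and H2-Ab1 one of 1.39 ± 0.33 (SE, edgeR adjusted p = 0.0436), against -0.64 without the offsets. Cd74 turned from -0.90 to 0.93 (edgeR adjusted p = 0.0743). H2-Aa kept its direction at 0.65 but was no longer called (edgeR adjusted p = 0.163), as were H2-DMa at -1.55 (0.0583) and H2-DMb1 at -1.02 (0.115). The directions that held in both fits were thus higher for H2-Aa and Ciita and lower for H2-DMa, H2-DMb1 and H2-Eb1.

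**Figure D3:**
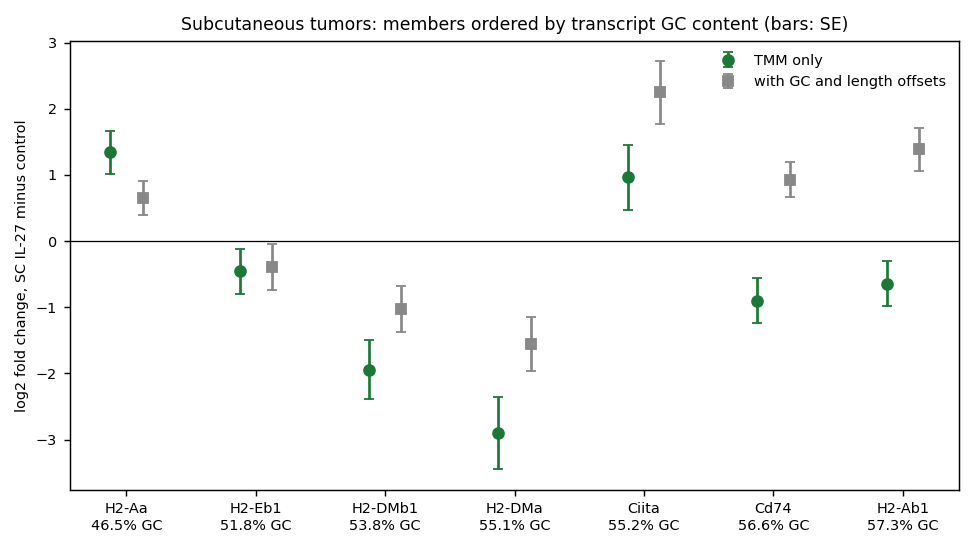
Log2 fold change of IL-27 over control in subcutaneous tumors (vertical axis) for the 7 class II genes, ordered by transcript GC content along the horizontal axis, with green circles for the fit with TMM scaling alone, grey squares for the fit with GC and length offsets, and bars for the SE. With the offsets Ciita rises from 0.97 to 2.25 and H2-Ab1 and Cd74 cross 0, while H2-DMa stays below 0 in both fits.

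Muscle, epithelial and leukocyte markers moved with the same comparison. The summed level of 12 skeletal muscle markers was 5.54 to 16.7 CPM in control and 395 to 1135 CPM in IL-27 tumors, and 11 of the 12 rose (median log2 fold change 6.27). The summed level of the epithelial markers was 25.3 to 70.2 CPM in control and 4.10 to 12.1 CPM in IL-27 tumors, and Krt8 fell by 3.81 on the log2 scale. Of 8 T cell markers 3 rose (Cd8a, Cd28 and Cd3g, by 4.19, 2.69 and 2.53 on the log2 scale) and none fell. Of 8 dendritic cell markers Cd209a rose by 2.77 and Flt3 fell by 1.93. Of 8 macrophage markers 3 fell, C1qa, C1qb and Cd68 by 3.86, 3.03 and 2.05, while 4 had estimates above 0 that did not pass, such as Adgre1 at 0.93 and Mrc1 at 1.53 (median of the list -0.08). Of 7 B cell markers tested Ms4a1 was called higher, from 0.109 to 0.138 CPM in control to 1.19 to 3.33 CPM in IL-27 tumors. Among pan-leukocyte genes Ptprc, which codes for CD45, rose by 2.02 and Coro1a and Laptm5 fell by 2.30 and 2.00. With GC and length offsets Cd8a (3.58), Cd209a (1.86), Flt3 (-2.0) and C1qa (-1.26) were still called by edgeR, and 11 of the 12 muscle markers. The other markers called above were not, with Cd28 at 1.49, Cd3g at 1.12, Ms4a1 at 2.90, C1qb at -0.87, Cd68 at -1.46, Ptprc at 0.76, Coro1a at -0.15, Laptm5 at -0.41 and Krt8 at -1.75 (edgeR adjusted p = 0.0557 to 0.81), and the estimates of Krt18, Epcam and Cdh1 were above 0. With a muscle score in the fit, 0 of the 7 class II genes were called by edgeR, where 4.26% of all genes were. The estimates of the 3 genes called without the score were larger and their errors wider, at 1.60 ± 1.23 for H2-Aa, -3.97 ± 1.52 for H2-DMa and -2.91 ± 1.45 for H2-DMb1 (SE). With 2 tumors a group these differences and the plasmid cannot be told apart.

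Around the members, the lists of the pathway held calls in both directions in the subcutaneous tumors, at counts to be read against the 20% of all genes called. Of 6 genes of peptide supply and invariant chain cleavage, Ctss, the cathepsin that trims the invariant chain, rose (log2 fold change 1.2) and Ifi30, the endosomal thiol reductase, fell by 2.25, and the other 4 did not pass. Of 7 promoter factors, Rfxank and Nfyc, subunits of the factors at the X1 and Y boxes, fell by 2.72 and 1.71, and none rose. Of 7 genes of the interferon gamma input, Ifng was called higher, with 0 and 4 raw reads in the control and 53 and 133 in the IL-27 tumors, too few in control for a fold change, and its receptor chain Ifngr2 fell by 1.56. March1, the ligase that sends class II to lysosomes, rose by 2.26. Of 10 genes of the class I pathway, Erap1 rose by 1.41 and Tap2 and Tapbp fell by 2.43 and 1.47. Of the 4 other class II loci tested, none passed. With GC and length offsets, of the 10 genes named here Ifi30, Rfxank, Nfyc and Ifngr2 were called, at log2 fold changes of -1.44, -1.43, -2.08 and -1.92 (edgeR adjusted p = 0.00925 to 0.0416). The other 6 were not, with Ctss at 0.49, March1 at 1.10, Erap1 at 0.21, Tap2 at -0.57 and Tapbp turned to 0.49, and Ifng at an adjusted p of 0.0912 (edgeR).

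In the intratibial model, EOS tumors were compared with day 14 tumors within each arm. All 7 genes were lower at EOS than at day 14 in all 4 arms by the point estimate, with median log2 fold changes of -1.30 in control, -1.98 in IL-27, -1.76 in cabo and -1.35 in IL-27+cabo tumors, and medians over all genes between -0.04 and 0.01. Leaving out 1 tumor turned H2-DMa and H2-DMb1 above 0 in the IL-27 arm and H2-DMb1 and Ciita in the IL-27+cabo arm. In the control and cabo arms T cell markers fell, with 3 and 2 of 8 called by edgeR (medians -2.25 and -2.64). In cabo tumors 2 of 8 macrophage markers were also called lower (median -0.60). In these lists and arms 0 estimates were above 0. Muscle markers had lower estimates at EOS in the IL-27 and IL-27+cabo arms, none called by edgeR, with medians of -6.14 in IL-27 and -4.56 in IL-27+cabo tumors and 12 of 12 at an unadjusted p under 0.05 in each. With a muscle score in the fit H2-DMa and H2-DMb1 turned above 0 in IL-27 tumors (both 0.83), and H2-Eb1 (0.70), H2-DMa (0.56) and Cd74 (0.28) in IL-27+cabo tumors. No gene of the 7 was called within an arm by edgeR, where 0.104% of all genes were called in control, 0% in IL-27, 2.09% in cabo and 0% in IL-27+cabo tumors. At an unadjusted p under 0.05 there were 4, 2, 5 and 0 of the 7 genes in these arms, against 13.1%, 5.05%, 17.6% and 3.83% of all genes. DESeq2 called 1 member in 1 arm (Ciita in cabo tumors, adjusted p = 0.0305). Of the genes to which it gave an adjusted p, it called 11.1% in that arm and 4.52% in control, 0.551% in IL-27 and 1.68% in IL-27+cabo tumors.

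H2-Aa stood at 42.3, 16.9 and 20.2 CPM in day 14 control tumors and at 14.7 and 6.0 CPM in EOS control tumors, without overlap. In the IL-27 arm it stood at 10.1, 8.65 and 53.1 CPM at day 14 and at 3.7 and 6.36 CPM at EOS, also without overlap, although mouse 8 alone made up most of the day 14 mean. In the cabo arm it stood at 34.5, 118 and 29.2 CPM at day 14 and at 19.6 and 9.93 CPM at EOS. In the IL-27+cabo arm the levels of 81.5, 54.2 and 34.8 CPM at day 14 overlapped those of 9.84 and 36.5 CPM at EOS, because mouse 28 reached the level of the lowest day 14 tumor. Every EOS tumor lay below every day 14 tumor for 6 of the 7 genes in control (all but Ciita), for 2 in IL-27 (H2-Aa and H2-Eb1), for 5 in cabo (all but H2-DMa and H2-DMb1) and for 0 in IL-27+cabo tumors, where the same held for 16.4%, 10.9%, 19.7% and 10.4% of all 21563 genes.

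Cd74 stood at 114, 50.4 and 59.6 CPM in day 14 control and at 43.7 and 16.7 CPM in EOS control tumors. In the cabo arm it stood at 92.9, 256 and 73.9 CPM at day 14 and at 51.7 and 30.3 CPM at EOS. It fell short of a call in both (edgeR adjusted p = 0.336 and 0.183). Ciita stood at 2.75, 1.72 and 0.942 CPM in day 14 control and at 0.830 and 1.10 CPM in EOS control tumors, which overlapped. In the cabo arm Ciita stood at 2.89, 6.29 and 3.53 CPM at day 14 and at 2.02 and 0.601 CPM at EOS, and the log2 fold change was -1.66 ± 0.57 (SE, edgeR adjusted p = 0.207).

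Averaged over the 4 arms in 1 fit of all 20 tumors, a comparison added after the data were seen, all 7 genes were lower at EOS with an unadjusted p under 0.05, against 14.8% of all genes at that level in either direction. None passed the adjusted threshold in edgeR, where 1.9% of all genes did. The log2 fold change was -1.73 ± 0.43 (SE) for H2-Aa (edgeR adjusted p = 0.0504), -1.71 ± 0.45 for H2-Eb1 (0.0647), -1.68 ± 0.45 for Cd74 (0.0697) and -1.65 ± 0.45 for H2-Ab1 (0.0742). These 4, the surface chains and the chaperone, had levels at EOS between 0.301 and 0.319 times those at day 14. H2-DMa (-1.01 ± 0.36), Ciita (-0.99 ± 0.42) and H2-DMb1 (-0.77 ± 0.35) had smaller estimates with edgeR adjusted p of 0.189, 0.279 and 0.325. DESeq2 called H2-Aa, H2-Ab1, H2-Eb1 and Cd74 lower (adjusted p = 0.000495 to 0.0126), where it called 6.01% of all genes. With GC and length offsets edgeR called H2-Aa (adjusted p = 0.0399), where 2.56% of all genes were called. Without mouse 6 (day 14, IL-27), the day 14 tumor with the lowest level of all members but H2-DMb1, edgeR called the same 4. Leaving out so low a day 14 tumor widens the difference. Without mouse 4 (day 14, IL-27) or mouse 20 (day 14, IL-27+cabo) edgeR called H2-Aa. The shares of all genes called in these fits are not given here.

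Other lists moved with time as well. The muscle markers were lower at EOS for 12 of 12 genes called (median log2 fold change -3.80), with a summed level of 6.97 to 6192 CPM at day 14 and 7.57 to 1015 CPM at EOS. With a muscle score in the fit, the estimates of the 7 genes stayed below 0, from -0.17 to -1.01, and none was called, where 0.148% of all genes were. Of 8 T cell markers 6 fell, Cd3e by 2.39 and Cd3g by 2.74 on the log2 scale. Ifng was called lower, with 0 to 92 raw reads per tumor at day 14 and 0 to 8 at EOS. Ccr7, which mature dendritic cells express, fell by 1.2 as the only 1 of 8 dendritic cell markers called. Of 8 macrophage markers 0 were called by edgeR, with 4 at an unadjusted p under 0.05. The promoter factors had a median of -0.03 with 0 of 7 called and 1 at an unadjusted p under 0.05. Of 10 class I pathway genes, 10 were lower at an unadjusted p under 0.05 and 0 called by edgeR (median -0.74), a smaller median than that of class II. Whether the class II difference rests on muscle or T cell content beyond the fit named was not tested.

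At day 14 each treatment was compared with control to see what it did to the class II genes. These comparisons share the same 3 control tumors. IL-27 tumors had all 7 genes lower by estimate (median log2 fold change -0.28), but the direction turned for 6 of the 7, all but Ciita, when 1 tumor was left out (for H2-Aa from -1.47 to 0.38). The comparison had 0 members called by edgeR or DESeq2 and 0 at an unadjusted p under 0.05, where edgeR called 0% of all genes, DESeq2 0.0109%, and 2.76% had such a p. Of the IL-27 tumors 2 were low and 1 was high. Cd74 stood at 30.5, 20.9 and 129 CPM, against 114, 50.4 and 59.6 CPM in control. The 95% interval of its log2 fold change ran from -1.79 to 1.2. The highest of the IL-27 tumors, mouse 8, also had the highest summed level of muscle markers of its group, 2239 CPM against 32.1 and 79.5 CPM in the other two. In the same comparison 0 estimates were above 0 among pan-leukocyte (median -0.83), class I pathway (-0.62), macrophage (-0.43), T cell (-1.03) and B cell markers (-1.50). Of 7 dendritic cell markers tested, 3 were above 0 (median -0.14).

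Cabo tumors had all 7 genes higher by estimate (median log2 fold change 0.98), with 0 called by edgeR or DESeq2, where edgeR called 1.89% and DESeq2 8.83% of all genes and 18.9% had an unadjusted p under 0.05. Ciita was the 1 member with such a p. It stood at 2.89, 6.29 and 3.53 CPM with cabo, every tumor above the 2.75, 1.72 and 0.942 CPM of control, and its log2 fold change was 1.21 ± 0.44 (SE, edgeR adjusted p = 0.196). The classical chains had estimates of 1.18 ± 0.57 for H2-Aa, 1.17 ± 0.54 for H2-Ab1 and 0.98 ± 0.51 for H2-Eb1 (SE, edgeR adjusted p = 0.295 to 0.344). H2-DMa and H2-DMb1 were near 0 at 0.21 ± 0.42 and 0.21 ± 0.41, and turned below 0 in fits without 1 tumor. Other markers moved with cabo at day 14. The summed level of muscle markers was 6.97 to 180 CPM in control and 1325 to 2006 CPM in cabo tumors, with 4 of 12 called higher and 12 at an unadjusted p under 0.05 (median log2 fold change 4.36). Of 8 T cell markers 5 fell (median -1.39), Cd3e by 1.97 on the log2 scale. Of 8 macrophage markers Itgam alone was called, higher by 1.11, and 8 had estimates above 0 (median 0.28). Of 8 dendritic cell markers Ccr7 alone was called, higher by 1.26, and only 3 had estimates above 0 (median -0.16). The part of the T cell, macrophage and dendritic cell markers in the class II estimates was not tested. A fit with a muscle score was among the alternatives run, and its estimates for this comparison are not given here.

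IL-27+cabo tumors also had all 7 genes higher by estimate (median 1.13), with 0 called by edgeR or DESeq2 and 1 at an unadjusted p under 0.05, where edgeR called 0.064% and DESeq2 2.62% of all genes and 6.2% had such a p. H2-Aa, that gene, stood at 81.5, 54.2 and 34.8 CPM against 42.3, 16.9 and 20.2 CPM in control, which overlapped (1.13 ± 0.47, SE, edgeR adjusted p = 0.795). Cd74 stood at 347, 128 and 83.7 CPM (1.36 ± 0.60, SE, edgeR adjusted p = 0.807). Muscle markers had a summed level of 1707 to 6192 CPM in these tumors, with 0 of 12 called by edgeR and 12 at an unadjusted p under 0.05 (median log2 fold change over control 5.70), and of 8 T cell markers Cd3e fell by 2.67 on the log2 scale. IL-27+cabo differed from cabo alone by a median of 0.12 and from IL-27 alone by 1.30, with 0 of the 7 called by edgeR or DESeq2 and 0 at an unadjusted p under 0.05 in either, where 1.92% of all genes had such a p against cabo and 4.85% against IL-27. In both comparisons edgeR called 0% of all genes, and DESeq2 called 0.0272% against cabo and 0.915% against IL-27.

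The test of whether the combination departed from the sum of its parts called 0 of the 7 as well (0 at an unadjusted p under 0.05, 0 by DESeq2), where edgeR called 0% and DESeq2 0.0206% of all genes and 1.88% had such a p. At EOS the IL-27 tumors differed from control by a median of -0.99, the cabo tumors by 0.51 and the IL-27+cabo tumors by 1.10, again with 0 called by edgeR or DESeq2 and 0 at an unadjusted p under 0.05, where edgeR called 0% of all genes in each and DESeq2 0.13%, 1.4% and 5.61%, and 3.25%, 8.9% and 14.2% had such a p. The summed level of muscle markers at EOS was 7.57 to 13.4 CPM in control, 9.70 to 18.9 CPM in IL-27, 138 to 1015 CPM in cabo and 120 to 256 CPM in IL-27+cabo tumors. Of 8 T cell markers 0 had estimates above 0 in cabo (median -1.28) and 1 in IL-27+cabo tumors (-0.87). Of 8 macrophage markers 7 (median 0.71) and 8 (1.26) did, and of 10 class I genes 10 in both (0.36 and 0.93). None of the 3 tests of whether a treatment's effect differed between EOS and day 14 called a member by edgeR or DESeq2 (0 at an unadjusted p under 0.05), and of all genes edgeR called 0% for the IL-27 effect and 0.0788% for that of either cabo arm, and DESeq2 0.014% for IL-27, 0.417% for cabo and 1.04% for the combination. An unadjusted p under 0.05 was held by 1.93%, 4.11% and 9.14% of all genes in these tests.

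**Figure D4:**
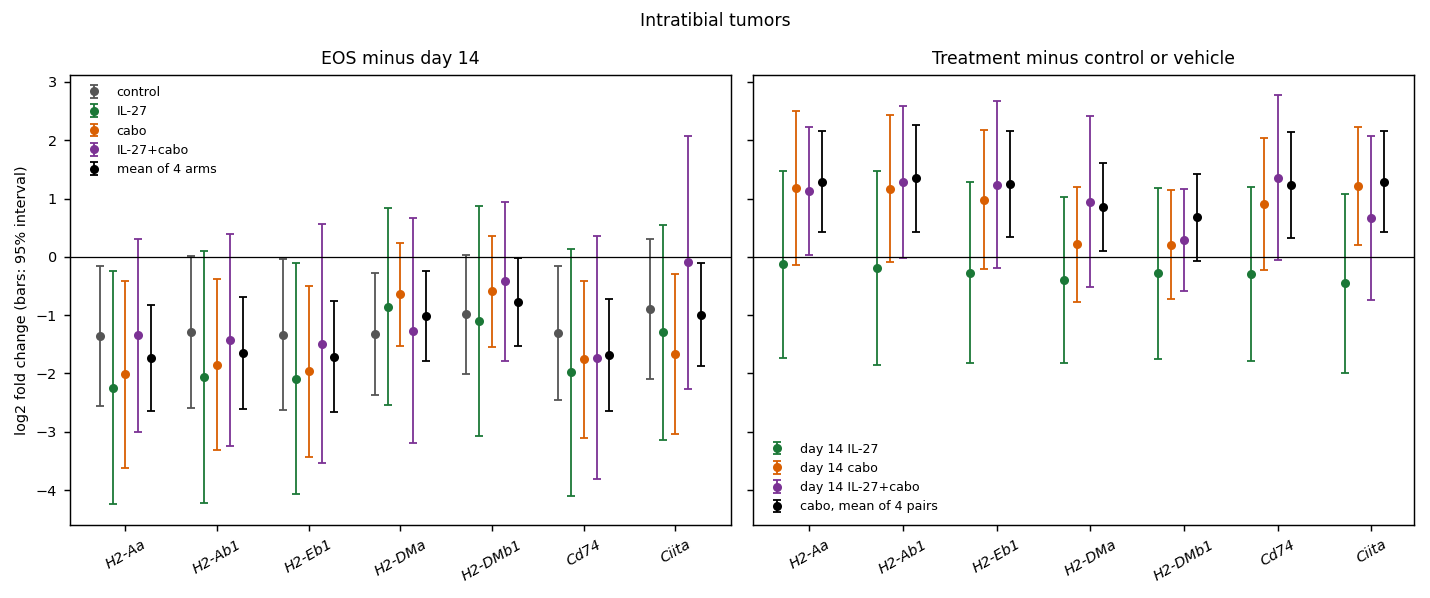
Log2 fold change (vertical axis) of the 7 class II genes in intratibial tumors, for EOS minus day 14 in each arm and averaged (left) and for treatments (right), with points for edgeR estimates and bars for 95% intervals. All 28 estimates of EOS against day 14 within an arm lie below 0, and those of cabo and IL-27+cabo at day 14 lie above 0 with intervals that mostly include it.

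Taking the 4 pairs of arms that differ in cabo together (2 at each time, a comparison added after the data were seen), all 7 genes were higher with cabo (median log2 fold change 1.25) and 6 had an unadjusted p under 0.05, against 14.3% of all genes. The EOS tumors in these pairs were taken after the 2 weeks of dosing. The 7 genes varied together, so here and in the 4-arm average they are not 7 separate observations. None was called by edgeR, where 2.71% of all genes were. H2-Ab1 had the largest estimate, 1.35 ± 0.43 (SE, edgeR adjusted p = 0.118). Ciita (1.29 ± 0.41, adjusted p = 0.113), H2-Aa (1.29 ± 0.41, 0.114), H2-Eb1 (1.25 ± 0.43, 0.149) and Cd74 (1.24 ± 0.43, 0.158) were close to it (SE, edgeR). H2-DMa (0.85 ± 0.36, 0.264) and H2-DMb1 (0.68 ± 0.35, 0.409) were lower. DESeq2 called 4 of the 7 (H2-Aa, H2-Ab1, H2-Eb1 and Ciita), where it called 6.97% of all genes. Without mouse 8, the day 14 IL-27 tumor of high class II, edgeR called 4 (H2-Aa, H2-Ab1, H2-Eb1 and Cd74). Leaving out this tumor, which had no cabo, raised the estimates, for H2-Aa to 1.63. That was the largest count of any fit without 1 tumor, and the smallest was 0. The share of all genes called in that fit is not given here. The 4 pairs that differ in IL-27 gave a median of -0.10 with 0 called by edgeR or DESeq2 and 0 at an unadjusted p under 0.05, where 0% of all genes were called and 2.27% had such a p. The cabo pairs at day 14 alone gave 5 of 7 at an unadjusted p under 0.05, against 12.6% of all genes, and 0 called by edgeR or DESeq2, where edgeR called 0.779% and DESeq2 5.47% of all genes.

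With cabo the class I pathway moved the same way as the class II estimates. Of its 10 genes 4 rose in the 4 pairs: Erap1, H2-D1, Tapbp and H2-K1, by 0.81, 0.82, 0.60 and 0.92 on the log2 scale. Of 8 macrophage markers, Fcgr1 and Mrc1 rose by 1.44 and 1.02. Of 8 T cell markers Cd3e, Cd3g and Lck fell by 2.07, 2.14 and 0.85. Muscle markers rose for 11 of 12 genes (median 3.98). With a muscle score in the fit the estimates of the class II genes were smaller, at 0.80 for Ciita, 0.39 for H2-Aa, 0.38 for H2-Ab1, 0.28 for Cd74, 0.23 for H2-Eb1, 0.06 for H2-DMa and -0.03 for H2-DMb1, with none called, where 0% of all genes were. Whether macrophage content bears on the class II levels was not tested.

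The 7 genes varied together across the 20 intratibial tumors. Over their 21 pairs Pearson's r of log2 CPM was 0.739 to 0.993 with a median of 0.926, and 0.623 to 0.988 after each group's mean was taken off, so the co-variation was also found between tumors given the same treatment. H2-Aa with H2-Ab1 had the highest r and H2-DMa with Ciita the lowest, and Ciita's own r with the other 6 was at most 0.846. These are descriptions over tumors that share groups and a normalization, and in bulk tissue a shared cell source also links genes.

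The mean log2 CPM of the 7 genes was set beside the mean of each marker list over the same tumors. Its r was 0.957 with the class I pathway, 0.897 with dendritic cell markers, 0.874 with pan-leukocyte and 0.865 with macrophage markers. It was 0.750 with peptide supply and invariant chain cleavage, 0.687 with skeletal muscle, 0.683 with the other class II loci and 0.581 with the interferon gamma input. With T cell markers (0.343), epithelial markers (0.311), B cell markers (0.301) and promoter factors (0.0046) it was low. Of these, B cell markers were at 0.515 without the 2 farthest tumors. After group means were taken off, the class I pathway (0.941), dendritic cells (0.850), pan-leukocyte genes (0.809) and macrophages (0.737) stayed high, and muscle was at 0.363. The other class II loci were then at 0.550, peptide supply at 0.587, the interferon gamma input at 0.543, B cell markers at 0.357, T cell markers at 0.265, promoter factors at 0.0842 and epithelial markers at -0.225. All are over 20 tumors and are given without a test. Within a time the values differed most for the interferon gamma input, 0.0735 over the 12 day 14 and 0.777 over the 8 EOS tumors, and for the promoter factors, 0.0221 and 0.646. For the class I pathway they were 0.928 and 0.973.

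**Figure D5:**
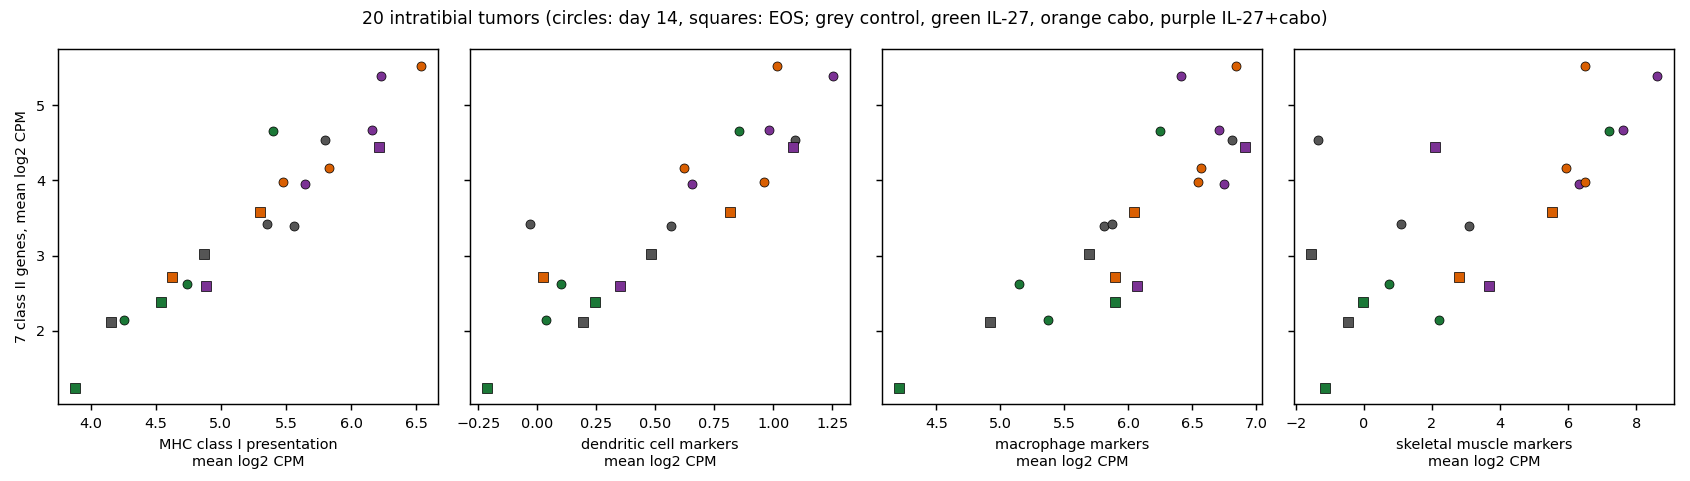
Mean log2 CPM of the 7 class II genes (vertical axis) against the mean log2 CPM of 4 lists (horizontal axes: class I pathway, dendritic cell, macrophage and skeletal muscle markers) in 20 intratibial tumors, with circles for day 14, squares for EOS and colours for arms. The tumors lie closest to a line for the class I pathway (r = 0.957) and scatter most for muscle (r = 0.687).

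Of 21556 other genes, the 10 whose log2 CPM followed that mean most closely over the 20 tumors were Psmb8 (r = 0.964), Tap2 (0.958), H2-K1 (0.954), Tmem119 (0.954), Ctss (0.945), Ctsh (0.943), Fcgr4 (0.938), Lyl1 (0.935), H2-D1 (0.935) and Ifi47 (0.934). Psmb8 is a subunit of the immunoproteasome, Tap2 a subunit of the peptide transporter of the class I pathway, and H2-K1 and H2-D1 are class I heavy chains. Ctss and Ctsh are endosomal cathepsins, Fcgr4 is an activating Fc receptor of myeloid cells and Ifi47 an interferon-induced GTPase. With group means taken off, the same 10 had r of 0.860 to 0.941.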

How the data were processed

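Tumor RNA was sequenced as poly(A)-selected, stranded, paired-end libraries, and the authors deposited raw counts per gene for 24 tumors. Their notes list FastQC, HISAT2, StringTie and DESeq2 and the build GRCh38, a human build name; the counting program and the mouse annotation are not given in the sources used here. Gene symbols came from GENCODE M21 by Ensembl identifier. Genes passing filterByExpr were fitted with edgeR 4.0.16 (R 4.3.3) by glmQLFit and glmQLFTest with TMM scaling, and called at a Benjamini-Hochberg adjusted p under 0.05 over all genes tested. Pairwise comparisons used only their own groups, EOS treatments the 8 EOS tumors, interactions and averages all tumors concerned. Every share called by DESeq2 is of the genes to which it gave an adjusted p. These can be fewer than edgeR tested, such as 15798 against 19144 for EOS against day 14 in cabo tumors. Levels are log2 CPM with a prior count of 2. Alternatives were DESeq2 1.42.0, RLE scaling, no filter, all groups in 1 fit, GC and length offsets (splines of 5 degrees of freedom), a muscle score, counts divided by 4, and leaving out each tumor. Scripts were tested on simulated data. All 7 members were tested in every comparison, and some comparisons give them only by counts, medians or ranges. Called genes of each other list are named up to 4 by smallest p, and not in every comparison. The 10 genes most like the members are named. Members and lists were chosen with earlier results of these data known.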

Additional observations from a re-analysis of the deposited data

How the results depend on the processing

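With 2 or 3 tumors a group, calls of the 7 genes rest on few tumors. The lowest raw count of a member was 22 (Ciita), and with counts divided by 4 the only count of calls that changed was that of the 4-arm average, given below. In the subcutaneous tumors the count of genes called was 3, 2 with GC and length offsets, 0 with the muscle score and 0 to 2 without 1 tumor each (0 without the first control tumor and 1 without the first IL-27 tumor). GC and length offsets turned H2-Ab1 (1.39) and Cd74 (0.93), and the muscle score turned H2-Eb1 (0.76). The subcutaneous replicate numbers were not shown to pair the tumors (correlation of the deviations of same-numbered tumors 0.0313): a replicate block called 3 genes, and the replicate block with GC and length offsets called 2 (H2-Ab1 at 1.41 and Ciita at 2.30) and turned Cd74 (0.92). The shares of all genes called in the blocked fits and in fits without 1 tumor are not given here, so these counts cannot be read against them. For EOS against day 14, DESeq2 called 1 gene in cabo tumors, and for the average of 4 arms DESeq2 called 4, GC and length offsets 1, counts divided by 4 1 and fits without 1 tumor each 0 to 4. For the 4 cabo pairs DESeq2 called 4 and fits without 1 tumor each 0 to 4. The muscle score turned H2-DMa (0.83) and H2-DMb1 (0.83) in IL-27 tumors and H2-Eb1 (0.70), H2-DMa (0.56) and Cd74 (0.28) in IL-27+cabo tumors at EOS against day 14, and H2-DMb1 in the cabo pairs (-0.034). Leaving out 1 tumor each turned uncalled estimates: at day 14 IL-27 against control H2-Aa ran from -1.47 to 0.38, H2-Ab1 from -1.56 to 0.37, H2-Eb1 from -1.58 to 0.16, H2-DMa from -1.41 to 0.17, H2-DMb1 from -1.46 to 0.12 and Cd74 from -1.52 to 0.14, at day 14 cabo against control H2-DMa from -0.20 to 0.77 and H2-DMb1 from -0.32 to 0.60, at EOS against day 14 H2-DMa from -1.54 to 0.15 and H2-DMb1 from -2.13 to 0.062 in IL-27, and H2-DMb1 from -1.39 to 0.18 and Ciita from -1.86 to 0.69 in IL-27+cabo tumors. The other 327 recomputed counts and levels stayed within 1.5 times the reported count or 1 SD of the reported level. The 20 intratibial tumors carry mouse numbers that no 2 groups share, so no block was possible there. In the 11 comparisons given only by counts and ranges, 168 of 1197 alternative estimates changed sign and 0 were called. The cause of these changes was not tested.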
